A study of Mus musculus with 34 samples.

Results

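Livers taken 24 hours after partial hepatectomy (PHx) were compared between SIRT1intKO mice (n = 7) and WT mice (n = 4), which are 11 of the 34 liver libraries of the study, chosen by the genotype and time of their labels. All were male mice of C57/Bl6 background, 8 to 12 weeks old, whose left lateral and median lobes, 70% of the liver, had been resected. In SIRT1intKO mice, a *Villin*-Cre recombinase, active in the epithelium of the intestine, removed exon 4 of *Sirt1*, a deacetylase that depends on NAD. The WT mice carried the same loxP-flanked *Sirt1* alleles without Cre. Whole liver was sequenced as stranded polyA RNA, so each value is an average over all cells of the organ, and fewer cells of a type cannot be told apart from less RNA per cell. The other livers, 12 taken without surgery (0 hours) and 11 taken 6 hours after PHx, came from other mice and are used only where named.

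After resection the remaining hepatocytes leave quiescence, while the liver has to keep up its synthesis of serum proteins, glucose, urea and bile acids. Kupffer cells, the resident macrophages, and leukocytes recruited from the blood signal to the hepatocytes through cytokines and chemokines, and sinusoidal endothelial cells supply Wnt ligands. The intestine reaches the liver through the portal vein, which carries nutrients, bile acids and microbial products. The comparison asks how the liver transcriptome differs when *Sirt1* is missing from the intestinal epithelium.

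At 24 hours, genes called higher in SIRT1intKO livers included 7 of 15 monocyte and macrophage markers, 8 of 18 chemokines and 4 of 23 glutathione transferases. Genes called lower included the gluconeogenic enzyme *Fbp1*, 6 of 58 enzymes of amino acid breakdown, the secreted proteins *Agt* and *Itih4* and the hepatocyte transcription factor *Cebpa*. Of 14980 genes tested, 207 (1.38%) were called higher and 195 (1.3%) lower in SIRT1intKO livers, together 2.68% of the genes. A call needs an adjusted p under 0.05 in edgeR and a log2 fold change above 1 or below -1, and by the adjusted p alone 870 genes (5.81%) passed. The median log2 fold change of all tested genes was -0.02. In 71 of the 402 called genes (0.474% of all tested), 42 higher (0.28%) and 29 lower (0.194%), the values of the groups did not overlap, against 295 of all tested genes (1.97%). The smallest adjusted p was 0.00013. Levels are given in CPM, the usual per-library rate of counts, after TMM scaling, and fold changes are SIRT1intKO relative to WT.

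The 11 libraries held 16302160 to 23480480 counts, but the livers of a group were unlike each other, which bears on every result. The median SD of log2 CPM over genes was 0.462 among WT and 0.391 among SIRT1intKO livers at 24 hours, and 0.233 to 0.316 in the 4 groups at 0 and 6 hours. On the first principal component, with 37% of the variance, WT 3, WT 4 and SIRT1intKO 5 (numbered as in the labels) lay between 60.6 and 84.9, and the other 8 livers between -55.1 and -7.23. WT 1 and WT 2 were highest on the second component, with scores of 36.2 and 80.3, and SIRT1intKO 2 was lowest with -56.7. *Cyp8b1*, an enzyme of bile acid synthesis, showed the same split, with 147 and 159 CPM in WT 3 and WT 4, 45.3 in SIRT1intKO 5 and 0.246 to 1.64 in the other livers. The labels' library numbers run from 1721 to 1727 for SIRT1intKO 1 to 4 and WT 1, and from 1739 to 1748 for the other 6 livers. What the numbers stand for is not given.

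**Figure D1:**
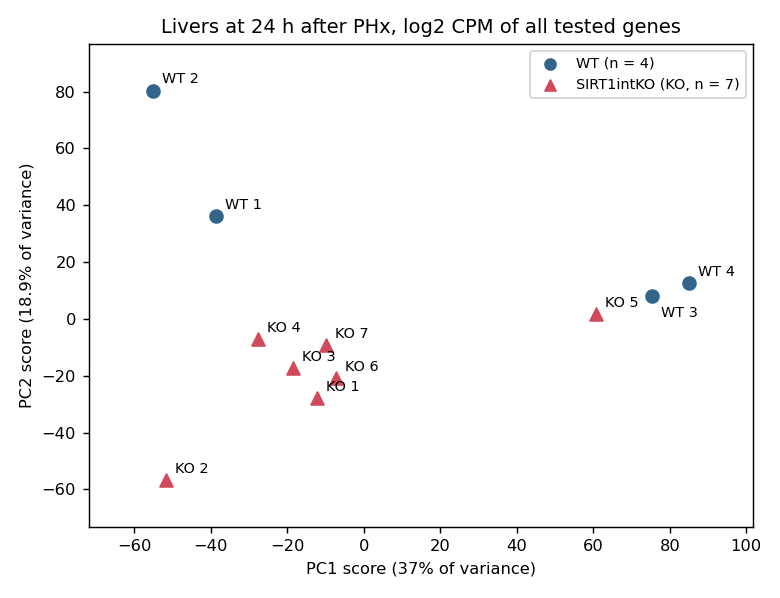
Scores of the 11 livers at 24 hours on the first (x axis, 37% of variance) and second (y axis, 18.9%) principal components of log2 CPM. Circles are WT and triangles SIRT1intKO (KO) livers, with replicate numbers. WT 3, WT 4 and KO 5 lie together at the right, and WT 1 and WT 2 lie above the other KO livers at the left.

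The calls rest on an estimate of spread shared with the livers at 0 and 6 hours. With the 24-hour groups alone, edgeR called 0 genes, with 1830 genes at an unadjusted p under 0.05 and a smallest adjusted p of 0.256, limma-voom called 0 genes (1640 at an unadjusted p under 0.05), and DESeq2 called 118 higher and 57 lower. Leaving out 1 liver at a time gave 102 to 391 genes higher and 92 to 424 lower: 391 and 424 without SIRT1intKO 5, 374 and 306 without WT 1, 102 and 130 without SIRT1intKO 2, 176 and 130 without SIRT1intKO 3, 152 and 92 without SIRT1intKO 6, 171 and 127 without SIRT1intKO 7, 128 and 188 without WT 2 and 114 and 202 without WT 4. In all 11 of these fits, 81 genes (52 higher, 29 lower) were called. Without WT 3, WT 4 and SIRT1intKO 5, 762 genes were called higher and 512 lower, and without WT 1 and WT 2, 801 and 639. Of the 402 genes, 122 (88 higher, 34 lower) were called the same way in both of these smaller sets, which share SIRT1intKO livers, and all 207 higher genes but 138 of the 195 lower genes kept their direction in both. Within the later run of library numbers, with 3 livers of each genotype, 94 genes were called higher and 56 lower, 389 of the 402 genes kept their direction and 77 their call. With the run of library numbers as a term, 125 were called higher and 104 lower, and only 185 of the 402 genes kept their call. Whether a call held in that fit is stated below for some genes only. The fits that left out 24-hour livers or used the run all kept the livers at 0 and 6 hours. A call that held in them, here and below, therefore does not show that it holds without the shared spread.

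**Figure D2:**
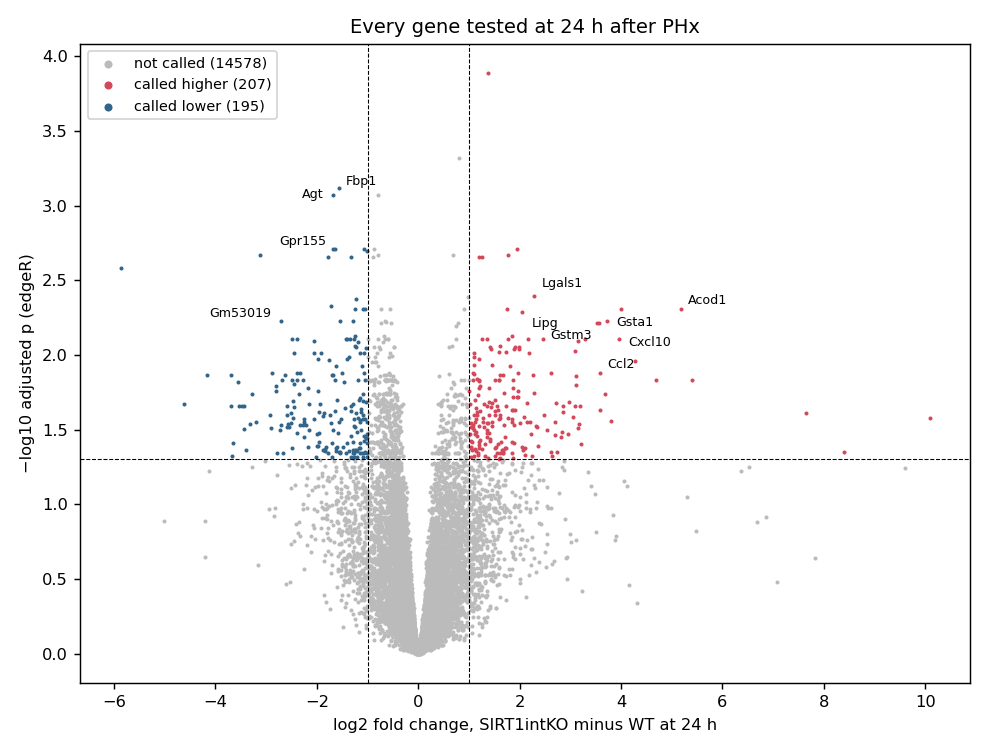
Log2 fold change (x axis, SIRT1intKO minus WT at 24 hours) and −log10 adjusted p (y axis) of all 14980 genes tested. Dashed lines mark the thresholds, and 207 genes are called higher (red) and 195 lower (blue).

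Of the called genes whose groups did not overlap, 32 higher and 22 lower had a symbol and averaged 1 CPM or more over the 11 livers. Among these, *Acod1* had the highest fold change. It encodes the enzyme of activated macrophages that makes itaconate. Its CPM was 0.307, 0.0571, 0.105 and 0 in WT 1 to WT 4 and 0.688 to 15.8 in SIRT1intKO livers (median 2.29), 36.1-fold higher (log2 fold change 5.17 ± 1 SE, adjusted p = 0.00496). The WT values rest on 5, 1, 2 and 0 counts, so the size of the fold change is imprecise. Next came *Gsta1* (13.2-fold, adjusted p = 0.00594), the interferon-inducible *Ifi205* (9.72-fold, 0.00779), the uncharacterized *Gm13056* (8.94-fold, 0.00812), *Ms4a4c* of the Ms4a membrane proteins (6.11-fold, 0.0132) and *Gstm3* (5.5-fold, 0.00779). *Acod1*, *Gm13056* and *Ms4a4c* averaged at most 0.277, 0.267 and 0.266 CPM in every group but SIRT1intKO at 24 hours. They entered the test and this ranking only through that group, so their low level elsewhere is partly set by the selection. *Lgals1*, the lectin galectin-1, was 4.88-fold higher (adjusted p = 0.00401), with 2.03, 3.77, 8.38 and 3.68 CPM in WT 1 to WT 4 and 8.51 to 63.4 in SIRT1intKO livers (median 13). *Lipg*, endothelial lipase, was 4.15-fold higher (adjusted p = 0.00517) and had 0.896 to 1.31 CPM in WT and 1.74 to 6.27 in SIRT1intKO livers. The remaining genes of the 12 were *4931408D14Rik* (3.99-fold), the sarcomere gene *Myom1* (3.92-fold), the cytokine *Il1a* (3.75-fold) and *Gsta4* (3.49-fold), with adjusted p between 0.00885 and 0.0286. The call of *4931408D14Rik* was lost without WT 2 (log2 fold change 1.77) and without WT 4 (1.97), and the other 11 were called in all fits that left out 1 liver.

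The 12 lowest of these genes were led by *Gm53019*, with 3.01, 3.6, 5.24 and 6.72 CPM in WT 1 to WT 4 and 0 to 2.96 in SIRT1intKO livers (median 0.379), 6.57-fold lower (log2 fold change -2.72 ± 0.53 SE, adjusted p = 0.00594). *Mmd2* was 6.38-fold lower (adjusted p = 0.0454) and *Gucy2c*, a guanylate cyclase receptor known from the intestinal epithelium, 5.27-fold lower (0.0331). Both calls were fragile, since 9 and 6 of the 11 fits without 1 liver lost them, with adjusted p up to 0.0865 and 0.0788. *Gm15998* (5.26-fold lower), *Gm2061* (3.21-fold), *Wfdc2*, a secreted protease inhibitor (3.3-fold), *Gpr155*, a lysosomal cholesterol sensor (3.11-fold), and *Gabbr2*, a subunit of the GABA-B receptor (2.92-fold), were called in all 11 fits. *Agt* and *Fbp1* are described below with *Got1*. *Isyna1*, which makes inositol phosphate from glucose phosphate, was 3.38-fold lower (adjusted p = 0.0109), but WT 1 held 113 CPM against 23.2 to 25.7 in the other WT livers, and without WT 1 the call was lost (log2 fold change -0.85, adjusted p = 0.126).

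**Figure D3:**
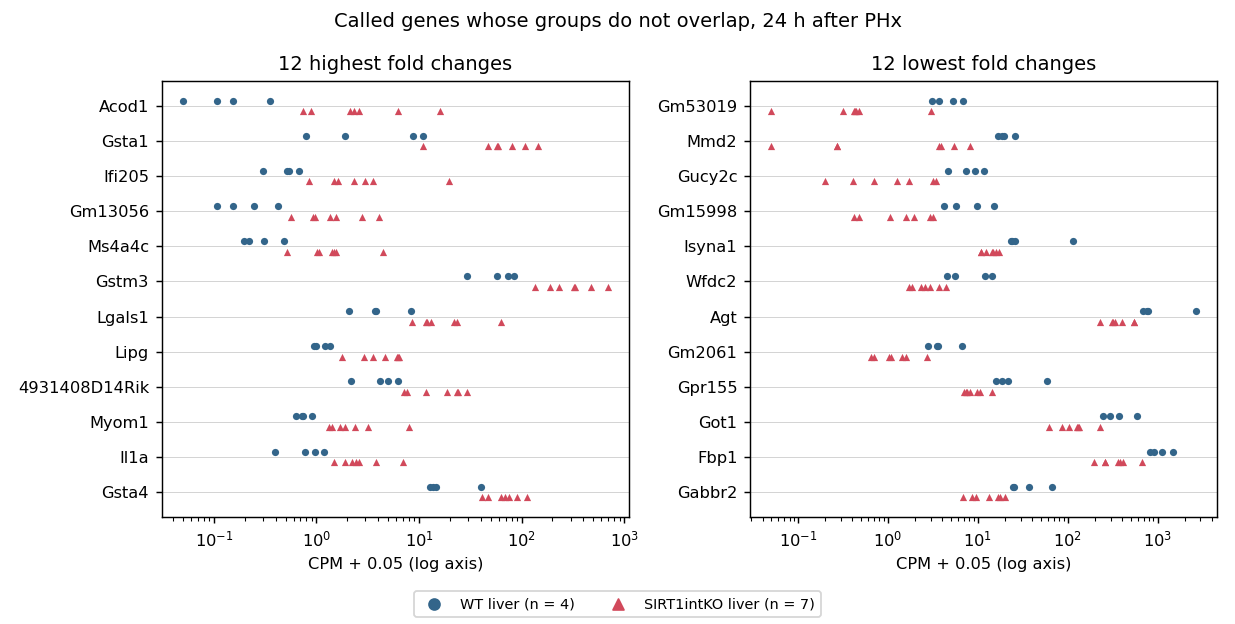
CPM (log x axis, with 0.05 added) in each of the 4 WT livers (circles) and 7 SIRT1intKO livers (triangles) for the called genes with the 12 highest (left) and 12 lowest (right) fold changes among those whose groups do not overlap. The rule chose genes without overlap, and the gap between groups is narrow for *Lgals1* (8.38 against 8.51 CPM) and wide for *Gstm3* (84.5 against 134).

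Several myeloid genes were higher in SIRT1intKO livers. Of 15 markers of monocytes and recruited macrophages, 7 were called higher and 0 lower, and their median log2 fold change was 1.51. *Lyz2*, the lysozyme of myeloid cells, had 30.9, 8.34, 27 and 26.3 CPM in WT 1 to WT 4 and 31.6 to 145 in SIRT1intKO livers (median 54.5), and the groups did not overlap but lay close at WT 1 and SIRT1intKO 5. It was 3.31-fold higher (log2 fold change 1.73 ± 0.37 SE, adjusted p = 0.0095). *Ms4a6c* was 4.48-fold higher (adjusted p = 0.00779) and *Ccr2*, the receptor by which monocytes follow *Ccl2*, 3-fold higher (0.0147), with overlap through SIRT1intKO 5 (2.06 CPM) and WT 1 (4.86 CPM). Their calls held in all 11 fits that left out 1 liver. The 8 markers not called included *Itgam*, *Cd68*, *Cx3cr1* and *Trem2*. The summed level of the 15 markers was 51.9 to 137 CPM in WT and 71.5 to 482 in SIRT1intKO livers, highest in SIRT1intKO 2 and lowest in SIRT1intKO 5.

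Other leukocyte and Kupffer markers moved less evenly. Of 11 tested neutrophil markers, *Csf3r*, the receptor of granulocyte colony-stimulating factor, was called, with 3.36-fold more RNA (adjusted p = 0.00496) and 2.19 to 5.41 CPM in WT against 4.83 to 16.8 in SIRT1intKO livers. *S100a8* and *S100a9*, which neutrophils and monocytes express strongly, were not called (adjusted p = 0.105 and 0.0958), and SIRT1intKO 2 alone held 375 and 498 CPM of them against at most 82 and 91.8 in every other liver. The summed neutrophil markers were 11 to 142 CPM in WT and 28.6 to 994 in SIRT1intKO livers. Of 12 Kupffer cell markers, *Marco*, a scavenger receptor, was called higher (4.86-fold, adjusted p = 0.018), with 6.46 to 20.2 CPM in WT and 13 to 177 in SIRT1intKO livers. Its call was lost without WT 2 (log2 fold change 2.03, adjusted p = 0.0513) and with the run of library numbers as a term (adjusted p = 0.0508). The defining Kupffer genes *Clec4f*, *Timd4* and *Vsig4* were not called, and the summed Kupffer markers were 59.4 to 204 CPM in WT and 147 to 431 in SIRT1intKO livers. Of 20 lymphocyte markers, 7 passed the filter on low counts and 0 were called. All 7 had a negative log2 fold change (median -0.98). The summed level of the 20 markers was low, with 2.8 to 11.3 CPM in WT and 3.31 to 5.58 in SIRT1intKO livers.

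Chemokine genes were the list with the highest median, 1.86 on the log2 scale, with 8 of 18 tested members called higher and 0 lower. *Cxcl10*, which attracts T cells and is induced by interferon, had 5.23, 1.54, 1.05 and 4.88 CPM in WT 1 to WT 4. In SIRT1intKO livers it ranged from 4.5 in SIRT1intKO 5 to 197 in SIRT1intKO 2, with a median of 24.6, and was 15.5-fold higher (log2 fold change 3.96 ± 0.82 SE, adjusted p = 0.00779). *Ccl2*, the main monocyte attractant, was 12-fold higher (adjusted p = 0.0132), with 5.84 CPM in WT 1, 0.946 to 1.14 in the other WT livers and 1.88 to 103 in SIRT1intKO livers. *Ccl7* (19.4-fold, adjusted p = 0.011) and *Ccl4* (25.9-fold, 0.0147) were called as well, the latter over 3, 0, 0 and 2 counts in the WT livers. *Ccl4* averaged at most 0.216 CPM in every group but SIRT1intKO at 24 hours, so it entered the test through that group. The 4 were called in all 11 fits without 1 liver. SIRT1intKO 2 held the highest value of each, and without it the log2 fold changes were 2.96 for *Cxcl10*, 2.65 for *Ccl2*, 3.41 for *Ccl7* and 3.4 for *Ccl4*. The fits without 1 liver kept both runs of library numbers. *Cxcl10* had 16.5, 197, 24.6 and 63.8 CPM in SIRT1intKO 1 to 4, of the earlier run. In the later run it had 4.5, 32 and 7.83 in SIRT1intKO 5 to 7 and 1.54, 1.05 and 4.88 in WT 2 to WT 4. *Ccl4* had 2, 41 and 9 counts in SIRT1intKO 5 to 7. The neutrophil attractants *Cxcl1*, *Cxcl2* and *Cxcl5* were not called. The summed level of the chemokines overlapped, with 340 to 529 CPM in WT (median 446) and 322 to 822 in SIRT1intKO livers (median 406).

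Genes of the TNF, IL-1 and NF-kB response were partly higher, with 5 of 23 called higher and 0 lower and a median log2 fold change of 0.77. *Il1a* had 0.343 to 1.14 CPM in WT and 1.45 to 6.97 in SIRT1intKO livers. *Tnip1*, an inhibitor of NF-kB signaling, was 2.13-fold higher (adjusted p = 0.00975), *Vcam1*, an adhesion molecule for leukocytes, 2.96-fold (0.0232) and *Tnfaip3*, the ubiquitin-editing enzyme A20, 6.67-fold (0.0448). The calls of these 3 depended on single livers. *Tnip1* fell under the fold threshold without SIRT1intKO 2 (log2 fold change 0.87) or SIRT1intKO 4 (0.97), and *Vcam1* was lost without SIRT1intKO 2 (adjusted p = 0.062), WT 2 (0.066) or WT 4 (0.0539). *Tnfaip3*, with 96 CPM in SIRT1intKO 4, was lost in 6 of the 11 fits (adjusted p up to 0.102). Of 26 genes of apoptosis, necroptosis and the inflammasome, 3 were called higher, among them *Bcl2a1b* and *Bcl2*, and 1, *Bmf*, was called lower. *Bcl2a1b*, a survival factor of myeloid cells, was 8.65-fold higher (adjusted p = 0.0138), with 21.5 CPM in SIRT1intKO 2 and 0.229 to 2.92 in the other livers. Its call was lost with the run of library numbers as a term (adjusted p = 0.0581). Of 21 interferon-stimulated genes, 2 were called higher, *Oasl2* (2.14-fold) and the guanylate-binding protein *Gbp2* (3.66-fold). *Gbp2* was lost without WT 2 (adjusted p = 0.056), and *Oasl2* fell under the fold threshold without WT 1, WT 2 or SIRT1intKO 4 (lowest log2 fold change 0.94).

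Promoters were searched for a listed set of motifs as a description, with no test. The windows of *Cxcl10*, *Tnip1* and *Il1a*, genes above that hold a searched motif, are shown beside 2 of hepatocyte genes described below. The windows are the RefSeq promoters of GRCm38.p6, an earlier build than the GRCm39 named for the deposited counts, matched by symbol for 150 of the 207 genes called higher, 111 of the 195 called lower and 10626 of all tested genes. Each window is 300 bases, from 250 before to 50 after the start site, and both strands were read. AP-1's TGANTCA was in 13.3% of windows of genes called higher, 6.31% of those called lower and 5.4% of all tested genes. The NF-kB motif GGGANTTCC was in 4.67%, 0% and 2.3%, and the HNF4 motif CAAAGTCCA in 3.33%, 1.8% and 0.574%. The C/EBP motif TTGCNNCAA was in 2%, 0% and 1.68%, and the E-box CACGTG in 7.33%, 13.5% and 10.1%. The HNF1 motif GTTAATNAT was in 0.667%, 0.901% and 0.649%, and the sterol element TCACNCCAC in 0.667%, 1.8% and 1.14%. In the whole RefSeq table of 32851 windows the shares were 7.81%, 1.68%, 0.475%, 2.08%, 7.15%, 0.801% and 1.24% for AP-1, NF-kB, HNF4, C/EBP, E-box, HNF1 and the sterol element. No motif contains another, and a match is a description of the letters only.

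The 250 bases upstream of the start site follow, 5′ to 3′ on the gene's strand, all on the minus strand. Capitals mark AP-1 and NF-kB matches in *Cxcl10*, NF-kB matches (overlapping) in *Tnip1*, AP-1 in *Il1a* and HNF4 in *Cyp3a11* and *Cyp8b1*.
Cxcl10 (chr5:92348890-92349139): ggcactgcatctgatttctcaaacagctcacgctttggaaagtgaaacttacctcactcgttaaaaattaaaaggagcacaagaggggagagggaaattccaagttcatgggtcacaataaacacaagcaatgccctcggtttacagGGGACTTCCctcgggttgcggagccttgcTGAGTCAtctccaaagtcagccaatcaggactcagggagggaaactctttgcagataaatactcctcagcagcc
Tnip1 (chr11:54962941-54963190): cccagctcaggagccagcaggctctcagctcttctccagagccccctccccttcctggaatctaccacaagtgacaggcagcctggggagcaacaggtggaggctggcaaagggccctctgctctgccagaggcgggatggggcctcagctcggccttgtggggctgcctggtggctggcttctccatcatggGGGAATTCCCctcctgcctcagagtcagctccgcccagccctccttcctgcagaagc
Il1a (chr2:129309973-129310222): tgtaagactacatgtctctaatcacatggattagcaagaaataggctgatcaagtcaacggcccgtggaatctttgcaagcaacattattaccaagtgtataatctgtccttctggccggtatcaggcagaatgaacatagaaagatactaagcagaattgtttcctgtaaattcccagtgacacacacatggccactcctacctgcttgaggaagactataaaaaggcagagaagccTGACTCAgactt
Cyp3a11 (chr5:145879855-145880104): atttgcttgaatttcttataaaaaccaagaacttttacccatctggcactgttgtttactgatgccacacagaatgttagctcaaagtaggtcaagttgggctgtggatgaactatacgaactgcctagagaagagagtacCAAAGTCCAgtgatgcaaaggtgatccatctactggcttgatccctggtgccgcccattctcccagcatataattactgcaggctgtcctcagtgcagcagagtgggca
Cyp8b1 (chr9:121916306-121916555): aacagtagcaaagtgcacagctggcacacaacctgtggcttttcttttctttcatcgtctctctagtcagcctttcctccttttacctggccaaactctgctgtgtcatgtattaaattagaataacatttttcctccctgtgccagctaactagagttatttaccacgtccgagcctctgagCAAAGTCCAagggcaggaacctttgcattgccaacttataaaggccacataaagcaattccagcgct

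Glutathione transferases, which conjugate glutathione to reactive compounds, had 4 of 23 tested members called higher and 0 lower, with a median log2 fold change of 0.47. *Gstm3* had 84.5, 29.6, 74.4 and 58 CPM in WT 1 to WT 4 and 134 to 692 in SIRT1intKO livers (median 323). It was 5.5-fold higher (log2 fold change 2.46 ± 0.5 SE, adjusted p = 0.00779), and SIRT1intKO 5, which lay with WT 3 and WT 4 on the first component, held 231. *Gsta1* had 8.67, 10.9, 1.83 and 0.747 CPM in WT 1 to WT 4 and 10.9 to 144 in SIRT1intKO livers (median 58.9), and WT 2 and SIRT1intKO 5 had nearly the same value. *Gsta13* was 11.8-fold higher (adjusted p = 0.00608). *Gsta1* and *Gsta13* belong to a family of close copies, so the split of reads between them is uncertain. *Gsta4* was 3.49-fold higher (adjusted p = 0.0118), with 40.4 CPM in WT 1, 12.7 to 14.6 in the other WT livers and 40.8 to 113 in SIRT1intKO livers. The 4 were called in all 11 fits without 1 liver, within the later run of library numbers, and with either set of livers that stood apart left out. The summed level of all transferases overlapped, with 4032 to 6170 CPM in WT and 3839 to 8858 in SIRT1intKO livers.

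Targets of NRF2, the transcription factor of the oxidative stress response, had 4 of 15 tested members called higher, 0 lower and all 15 with a positive log2 fold change (median 0.52). Besides *Gstm3* these were *Nqo1*, a quinone reductase, *G6pdx*, the first enzyme of the pentose phosphate pathway, and *Srxn1*, sulfiredoxin, each 2.28-fold higher (adjusted p = 0.0107, 0.0146 and 0.0403). *Nqo1* had 2.34 to 5.55 CPM in WT and 4.6 to 16.7 in SIRT1intKO livers. The call of *Nqo1* was lost without WT 2 (log2 fold change 0.98), that of *G6pdx* without WT 4 (0.97), and that of *Srxn1* without 7 of the 11 livers. *Gclc*, *Gclm*, *Hmox1* and *Txnrd1* were not called.

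*Cyp3a11*, a main drug-metabolizing cytochrome P450, was the most abundant gene called higher. It had 1143, 351, 2302 and 1627 CPM in WT 1 to WT 4 and 2354 to 6197 in SIRT1intKO livers (median 4020), and the groups nearly touched at WT 3 and SIRT1intKO 5. It was 2.84-fold higher (log2 fold change 1.5 ± 0.39 SE, adjusted p = 0.0237), and 1 of 37 tested Cyp2 and Cyp3a genes called. *Cyb5a*, cytochrome b5, was 2.14-fold higher (adjusted p = 0.0251). The calls of *Cyp3a11* and *Cyb5a* were lost without WT 2 (adjusted p = 0.0651 and 0.066) and with the run of library numbers as a term (adjusted p = 0.105 and 0.176), and *Cyb5a* also without WT 4 (0.0509), SIRT1intKO 1 (log2 fold change 0.99) and SIRT1intKO 2 (0.77). *Abcb4*, which moves phosphatidylcholine into bile, was 2.86-fold higher (adjusted p = 0.0146), with 77 to 249 CPM in WT and 216 to 895 in SIRT1intKO livers, and held in all 11 fits. *Abcc3*, a basolateral exporter of conjugated bile acids, was 2.74-fold higher (adjusted p = 0.03), with 5 of the 11 fits losing the call. These were the 2 of 19 tested bile acid and xenobiotic transporters that were called.

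*Fbp1*, a controlling enzyme of gluconeogenesis, had 815, 1481, 1107 and 921 CPM in WT 1 to WT 4 and 197 to 675 in SIRT1intKO livers (median 367). All SIRT1intKO livers lay below all WT livers, and it was 2.96-fold lower (log2 fold change -1.57 ± 0.23 SE, adjusted p = 0.000769), called in all 11 fits, in the later run and without either set of livers that stood apart. Of 26 genes of gluconeogenesis, glycolysis and glycogen, *Fbp1* was the 1 called lower. *Slc2a2*, the glucose transporter GLUT2, was the 1 called higher (3.12-fold, adjusted p = 0.0385), and its call was lost without WT 1, WT 2, SIRT1intKO 1 or SIRT1intKO 3 (adjusted p up to 0.107).

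Of 58 enzymes of amino acid breakdown, 6 were called lower and 1 higher, and the median log2 fold change was -0.48. At the adjusted p alone, 12 of the 58 were lower, where 3.51% of all tested genes were. *Got1*, cytosolic aspartate aminotransferase, had 245, 596, 374 and 293 CPM in WT 1 to WT 4 and 62 to 228 in SIRT1intKO livers (median 127). It was 3.04-fold lower (adjusted p = 0.0199), and its call was lost without WT 2 (log2 fold change -1.29, adjusted p = 0.076). *Sds*, serine dehydratase, was 3.09-fold lower (adjusted p = 0.0118), with 206 to 372 CPM in WT, 241 in SIRT1intKO 5 and 46.2 to 118 in the other SIRT1intKO livers, and held in all 11 fits. *Csad*, of taurine synthesis, was 3.76-fold lower (adjusted p = 0.00975), with 111 and 168 CPM in WT 3 and WT 4 and 22.9 and 32.5 in WT 1 and WT 2, which overlap SIRT1intKO livers. Its call was lost without WT 4 (adjusted p = 0.06). *Hpd*, of tyrosine breakdown, was 2.58-fold lower (adjusted p = 0.0439), with 1745 and 1448 CPM in WT 3 and WT 4, 1105 in SIRT1intKO 5 and 142 to 403 in the other livers, and 8 of the 11 fits lost the call. *Gpt2*, an alanine aminotransferase, was the enzyme called higher (2.11-fold, adjusted p = 0.0132), with 117 to 293 CPM in WT and 312 to 666 in SIRT1intKO livers. It fell under the fold threshold without WT 2 (log2 fold change 0.86) and without SIRT1intKO 1 (0.96).

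In the urea cycle and ammonia list, 2 of 13 members were called lower, *Gls2*, the liver glutaminase (2.49-fold, adjusted p = 0.0219), and *Asl*, argininosuccinate lyase (2.02-fold, 0.0283). The median log2 fold change was -0.42. *Gls2* followed the first component, with 231 and 247 CPM in WT 3 and WT 4, 143 in SIRT1intKO 5 and 38.4 to 106 in the other livers, and its call was lost without WT 3 (adjusted p = 0.064) and WT 4 (0.0881). *Asl* had 921 CPM in WT 2 and 216 in WT 1, and its call was lost without WT 2 (log2 fold change -0.58, adjusted p = 0.209) and without SIRT1intKO 2, 6 or 7. Of 15 genes typical of periportal hepatocytes, 3 were called lower, and these were *Sds*, *Gls2* and *Asl*. Of 16 genes of bile acid synthesis, *Cyp8b1* was called lower (10.6-fold, adjusted p = 0.0434), but 8 of the 11 fits lost the call, and without WT 3, WT 4 and SIRT1intKO 5 the log2 fold change was 0.74 (adjusted p = 0.552).

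Several secreted hepatocyte proteins were lower in SIRT1intKO livers. *Agt*, angiotensinogen, had 763, 2693, 777 and 693 CPM in WT 1 to WT 4 and 227 to 540 in SIRT1intKO livers (median 336), with no overlap and 1 high value in WT 2. It was 3.23-fold lower (log2 fold change -1.69 ± 0.26 SE, adjusted p = 0.000847), and without WT 2 the difference was -0.97 (adjusted p = 0.014), under the fold threshold. *Itih4*, an inter-alpha-trypsin inhibitor, had 6676, 9455, 6757 and 6551 CPM in WT 1 to WT 4 and 2272 to 4579 in SIRT1intKO livers (median 3682), 2.1-fold lower (adjusted p = 0.00195). *Vtn*, vitronectin, had 2718 to 4596 CPM in WT and 1147 to 2762 in SIRT1intKO livers, 2.01-fold lower (adjusted p = 0.00201). Both stood close to the fold threshold. *Itih4* fell under it without WT 2 (-0.93) or SIRT1intKO 2 (-0.999), and *Vtn* without WT 2 (-0.86) or SIRT1intKO 2 (-0.96), 6 (-0.91) or 7 (-0.95), with adjusted p of at most 0.014 in each of these fits.

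Across lists of such proteins, shifts under 2-fold were common. Of 20 acute-phase proteins, *Itih4* was called lower, and the median log2 fold change was -0.63. At the adjusted p alone, 6 of the 20 were lower and 0 higher, where 3.51% of all tested genes were lower and 2.3% higher. *Fga*, a fibrinogen chain, had 25708 and 39921 CPM in WT 1 and WT 2, 15886 and 13242 in WT 3 and WT 4, and 8738 to 17519 in SIRT1intKO livers. It was 1.81-fold lower (adjusted p = 0.0213), and without WT 2 the adjusted p was 0.164. The acute-phase genes *Saa1*, *Saa2*, *Orm1* and *Lcn2* were not called. Of 28 tested coagulation and complement factors, 9 were lower and 0 higher at the adjusted p alone, 24 had a negative log2 fold change, and the median was -0.40. *Plg*, plasminogen, had 2193 to 2684 CPM in WT and 1138 to 2022 in SIRT1intKO livers (1.57-fold lower, adjusted p = 0.00779), and *C3*, the central complement component, 12196 to 18398 and 8227 to 10853 (1.52-fold lower, adjusted p = 0.0243). Neither overlapped between groups, but the adjusted p of *C3* was 0.0642 without WT 1 and 0.052 without SIRT1intKO 6. *C9*, of the membrane attack complex, was called (2.1-fold lower, adjusted p = 0.0132), but fell under the fold threshold without WT 3 (-0.97), WT 4 (-0.94) or SIRT1intKO 6 (-0.95). *Alb*, albumin, went the other way, with 15025 to 24980 CPM in WT and 24239 to 47338 in SIRT1intKO livers, 1.8-fold higher (adjusted p = 0.0278), under the fold threshold, with an adjusted p of 0.0827 without WT 2.

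**Figure D4:**
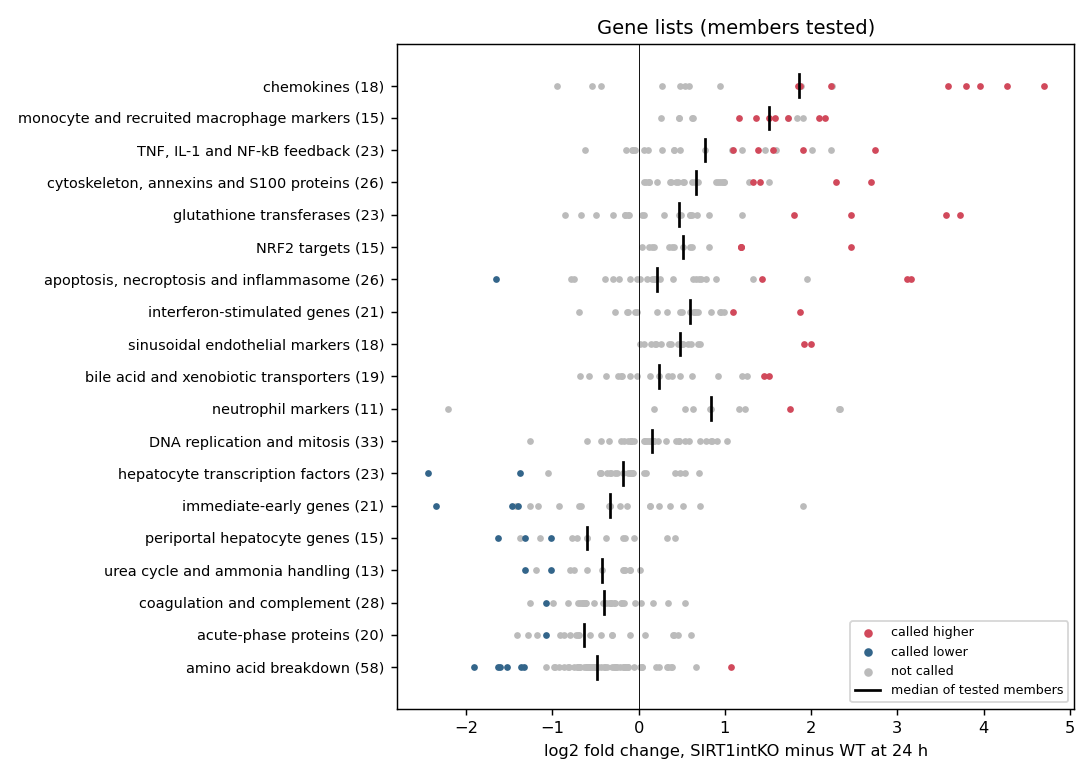
Log2 fold change (x axis) of each tested member (points) of 19 gene lists (y axis, members tested in parentheses), with the median as a bar. Called members are red (higher) or blue (lower). Chemokine and monocyte lists have medians of 1.86 and 1.51, and the acute-phase and amino acid lists of -0.63 and -0.48, where all tested genes have -0.02.

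Of 23 hepatocyte transcription factors, 2 were called lower and 0 higher, with a median log2 fold change of -0.18. *Cebpa*, which maintains the quiescent, metabolic state of hepatocytes, had 137, 109, 221 and 205 CPM in WT 1 to WT 4 and 29.2 to 135 in SIRT1intKO livers (median 56.7). The groups overlapped only through SIRT1intKO 5, the highest of its group. It was 2.59-fold lower (log2 fold change -1.37 ± 0.3 SE, adjusted p = 0.0103) and was called in all 11 fits and without either set of livers that stood apart. *Onecut1*, a factor of liver and biliary development, was 5.44-fold lower (adjusted p = 0.0157), with 21.1 and 12.2 CPM in WT 3 and WT 4, 3.87 and 3.71 in WT 1 and WT 2 and 0.587 to 5.58 in SIRT1intKO livers, and lost its call without WT 3 (adjusted p = 0.067). *Nfil3*, a repressor under circadian control, had 44.4 to 79.6 CPM in WT and 13.8 to 43.9 in SIRT1intKO livers, 2.27-fold lower (adjusted p = 0.0146), and was called in all 11 fits.

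Immediate-early genes, the first to be transcribed after a growth or stress signal, had 3 of 21 members called lower and 0 higher. *Egr1* had 238, 1015, 316 and 49.2 CPM in WT 1 to WT 4 and 23.3 to 126 in SIRT1intKO livers (5.08-fold lower, adjusted p = 0.0181). *Ier2* (2.76-fold, adjusted p = 0.0151) and *Junb* (2.65-fold, 0.0386) also had their highest value in WT 2. Without WT 2 the 3 calls were lost (adjusted p = 0.162, 0.173 and 0.424), and *Junb* was also lost without SIRT1intKO 2, 3, 6 or 7. *Jag1*, a Notch ligand, was 2.36-fold lower (adjusted p = 0.00874) and the IL-13 receptor chain *Il13ra1* 2.14-fold lower (0.00496). Without WT 2 they were lost too, with log2 fold changes of -0.79 and -0.86. Of 20 tested genes of the IL-6 family and STAT3 feedback, *Il13ra1* was the 1 called lower and the receptor gene *Il22ra1* the 1 called higher.

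Genes of growth and cell division gave few calls. Of 33 tested genes of DNA replication and mitosis, 0 were called or passed the adjusted p, with log2 fold changes from -1.26 to 1.02 and a median of 0.16. *Pcna*, the DNA polymerase clamp, had 17.4 to 27.5 CPM in WT and 19.9 to 37.2 in SIRT1intKO livers, and the 95% interval of its log2 fold change was -0.14 to 0.49. *Ccnd1*, cyclin D1, had 45, 6.86, 63.8 and 66.2 CPM in WT 1 to WT 4 and 64.1 to 159 in SIRT1intKO livers (log2 fold change 1.34 ± 0.51 SE, adjusted p = 0.104). *Tgfa*, a ligand of the EGF receptor, was 2-fold higher (adjusted p = 0.0175), and 6 of the 11 fits lost the call. *Cdkn2b*, an inhibitor of cyclin-dependent kinases, was 4.99-fold higher (adjusted p = 0.0301), but at 0.0571 to 0.184 CPM in WT and 0.0938 to 0.904 in SIRT1intKO livers it rests on few reads. In every other group it averaged at most 0.217 CPM, so it entered the test through the SIRT1intKO livers at 24 hours. It was the 1 gene called of 20 tested G1 cyclins, kinases and inhibitors. *Cdkn1a*, which encodes the inhibitor p21, was not called. *Fgf21*, a stress-induced hormone of the liver, was 7.19-fold higher (adjusted p = 0.0329), with 0.733 to 3.83 CPM in WT, 2.16 and 2.66 in SIRT1intKO 5 and 4 and 12.6 to 32.4 in the other SIRT1intKO livers. The calls of *Cdkn2b* and *Fgf21* were lost in 4 and 5 of the 11 fits, with adjusted p of at most 0.0804.

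Of 18 markers of sinusoidal endothelium, 2 were called higher, the angiocrine ligands *Wnt2* and *Wnt9b*, and all 18 had a positive log2 fold change (median 0.48). *Wnt2* had 0.307, 0.229, 1.2 and 0.896 CPM in WT 1 to WT 4 and 0.922 to 4.04 in SIRT1intKO livers (median 3.47), 3.98-fold higher (adjusted p = 0.00878), and was called in all 11 fits. *Wnt9b* was 3.77-fold higher (adjusted p = 0.0234) and lost its call without WT 2 (adjusted p = 0.0624). The other markers, among them *Stab2*, *Lyve1* and *Pecam1*, were not called. The summed endothelial markers were 91.2 to 273 CPM in WT and 148 to 308 in SIRT1intKO livers. Of 17 markers of stellate cells and fibroblasts, 32 tested genes of the extracellular matrix, 19 YAP-TEAD targets and 22 of TGF-beta and activin, 0 were called in each list, with medians of 0.33, 0.60, 0.34 and 0.01. Of 26 genes of the cytoskeleton, annexins and S100 proteins, 4 were called higher, *Lgals1* among them, and all 26 had a positive log2 fold change (median 0.67). The 24 genes of cholesterol synthesis and LDL uptake had a median of 0.65 with 0 called.

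The livers expressed the defining hepatocyte genes in all 11 libraries, with a summed level of 64410 to 104891 CPM for 14 markers, of which 0 were called. Of 7 tested markers of fat, pancreas, gut and mesothelium, *Fabp2*, a fatty acid-binding protein that hepatocytes express weakly, was called higher (2.76-fold, adjusted p = 0.028), with 307 CPM in SIRT1intKO 2 and 23.2 to 99.3 in the other livers. Its call was lost without SIRT1intKO 2 (adjusted p = 0.0767), WT 1 (0.0623) or WT 2 (0.0741). *Cfd*, adipsin of fat cells, was at 25.1 CPM in SIRT1intKO 3 and at most 0.915 in the other livers. The part of other tissue or of cell numbers in the differences was not tested. Over the 61 lists examined, 21 held no called gene, 18 held only genes called higher, 17 only genes called lower and 5 both.

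*Sirt1* itself was not called in liver. *Villin*-Cre deletes it in the intestinal epithelium, so its level in liver does not check the genotype. It had 23.1, 11.3, 8.8 and 11.2 CPM in WT 1 to WT 4 and 6.92 to 13.5 in SIRT1intKO livers (median 7.87), with a log2 fold change of -0.65 ± 0.22 SE and an adjusted p of 0.0726. WT 1 was the highest and SIRT1intKO 4 the next.

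Before surgery and at 6 hours, in other mice, the genotypes were not told apart by this test. The livers at 0 hours carry a separate, higher series of library numbers than those at 6 and 24 hours. Changes from 0 hours therefore cannot be told apart from a difference between these series. At 0 hours edgeR called 0 genes (161 with an unadjusted p under 0.05) and DESeq2 called 1 higher and 5 lower, and at 6 hours edgeR called 0 (976) and DESeq2 8 higher and 1 lower. *Gstm3* had group means of 64.4 (WT) and 47 CPM (SIRT1intKO) at 0 hours, 28.9 and 40.5 at 6 hours, and 61.6 ± 24 (SD, n = 4) and 339 ± 192 (SD, n = 7) at 24 hours. *Fbp1* had 717 and 659 CPM at 0 hours, 1352 and 1177 at 6 hours, and 1081 ± 293 and 365 ± 158 at 24 hours. *Lyz2* had 44.4 and 44.5 CPM, 33.1 and 19.8, and 23.1 ± 10.1 and 76.7 ± 46.4. *Cebpa* had 204 and 244 CPM, 114 and 115, and 168 ± 53.7 and 64.9 ± 34.9. The test of the interaction, whether the genotype difference at 24 hours differed from that at 0 hours, called 1 gene (0.00668%), *Gskip*, in edgeR (1904 with an unadjusted p under 0.05) and 64 higher and 32 lower in DESeq2. The edgeR count was 50 higher and 25 lower without WT 1 at 24 hours, 93 and 112 without SIRT1intKO 5, and 0 without WT 2. For the other genes with values here, edgeR's interaction test on all 34 libraries gave an adjusted p of 0.064 or more. That fit did not show a difference particular to 24 hours for any of them. Which of them DESeq2 or the fits without 1 liver called is not given here.

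**Figure D5:**
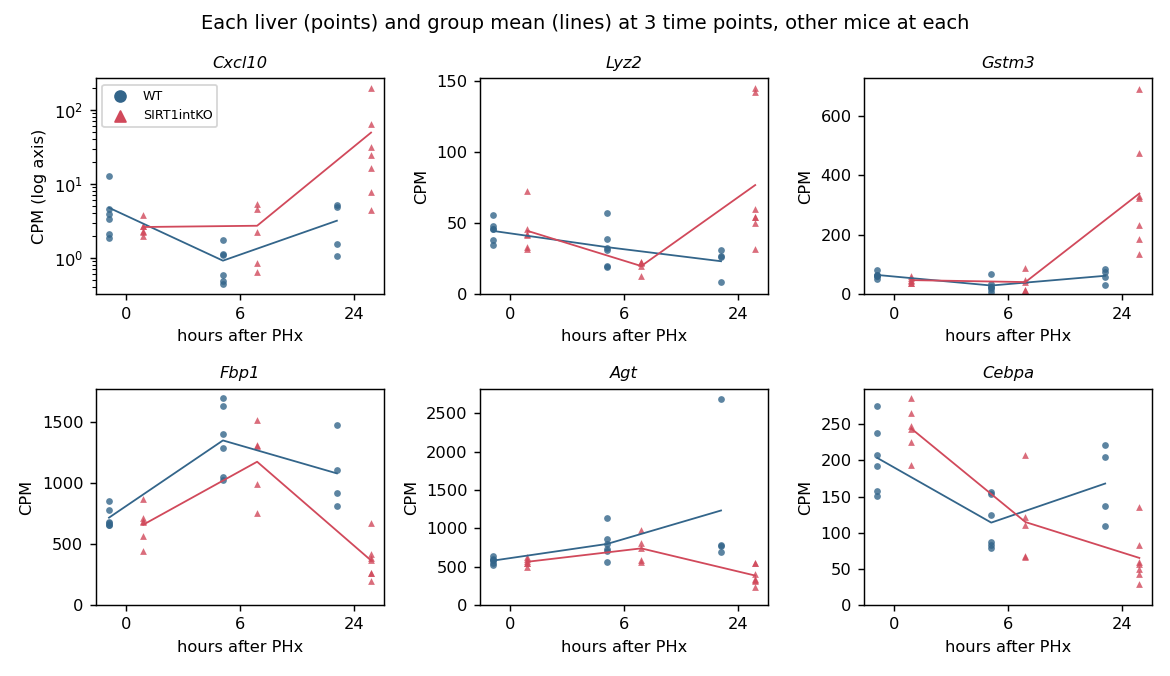
CPM (y axis, log scale for *Cxcl10*) of 6 genes by hours after PHx (x axis; 0, 6 or 24). Points are single livers, circles WT and triangles SIRT1intKO, and lines join group means of different mice. The livers at 0 hours carry a separate series of library numbers. The means at 24 hours are 339 (SIRT1intKO) and 61.6 CPM (WT) for *Gstm3*. At 6 hours they are 2.71 and 0.914 for *Cxcl10* and 19.8 and 33.1 for *Lyz2*.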

How the data were processed

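The authors sequenced polyA RNA of whole liver as stranded libraries (paired reads of 100 bases), and the submitters' processing notes name STAR, Salmon and the build GRCm39, with versions and annotation release not given in the sources used here. The deposited table holds estimated counts per gene (4.97% of values not whole), which were rounded. Of its 35 count columns, 1 matched no sample and was not used. The labels give 4 WT livers at 24 hours, 1 fewer than the study's text, and were followed. Table symbols lack the letter x, and 1316 were restored from gene identifiers (705 of tested genes). The labels call the libraries biological replicates. The p-values and SEs use a spread between livers that is shared over all 6 groups. They do not measure the spread of the 24-hour livers alone, which was larger than that of the other groups. In edgeR 4.0.16 (R 4.3.3), 34 libraries in 6 groups were scaled by TMM, filtered by expression (14980 of 78298 genes kept) and fitted by quasi-likelihood, with Benjamini-Hochberg adjusted p. Genes were named by rule: the 12 highest and 12 lowest fold changes among called genes with a mean of at least 1 CPM and no overlap, the 5 largest rises and falls in mean CPM, up to 4 called members per list (the 2 most abundant where fewer than 2 were called) and *Sirt1*. Many list members that the rule gives are not printed, and no rule chose which to leave out. Uncalled genes given without values, and *Gskip*, were named after their values were seen. The members, lists and tests were chosen with earlier results of these data known. Tests were run on simulated counts with 1 spread per gene for all 34 libraries. That check does not cover the larger spread of the real livers at 24 hours. DESeq2 1.42.0, limma 3.58.1, other scalings, filters and left-out livers were alternatives.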

Additional observations from a re-analysis of the deposited data

Results flagged for a closer look

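In 40 of 180 sets of values, a gene or summed marker list within the WT or the SIRT1intKO livers at 24 hours, the highest liver lay farther from the rest than Dixon's 95% limit allows. Chance gives about 1 in 20 for independent, normally distributed values. The sets here are unlogged CPM of the same livers, many for genes chosen as called, so the 40 are a description only. SIRT1intKO 2 was the high liver most often, with CPM of *Acod1* 15.8, *Ifi205* 19.4, *Ms4a4c* 4.4, *Lgals1* 63.4, *Il1a* 6.97, *Cxcl10* 197, *Ccl2* 103, *Ccl4* 9.32, *Ccl7* 35.2, *Vcam1* 78.5, *Bcl2a1b* 21.5, *Gbp2* 22.2, *Fabp2* 307, *S100a8* 375, *S100a9* 498, *Pcna* 37.2, the summed neutrophil markers 994 and the summed adjacent tissue markers 309. SIRT1intKO 5 was high in CPM of *Hpd* 1105, *C9* 337, *Gm53019* 2.96, *Got1* 228, *Sds* 241, *Gls2* 143, *Onecut1* 5.58 and *Cyp8b1* 45.3. Among the remaining SIRT1intKO livers, SIRT1intKO 1 had high CPM of *Myom1* 7.89 and *Slc2a2* 199, SIRT1intKO 3 of *Cfd* 25.1, and SIRT1intKO 4 of *Sirt1* 13.5 and *Tnfaip3* 96. WT 1 was the high WT liver with CPM of *Gsta4* 40.4, *Ms4a6c* 2.46, *Ccl2* 5.84, *Tnfaip3* 8.49, *Gpr155* 58.1 and *Isyna1* 113, WT 2 with *Agt* 2693 and *Itih4* 9455, and WT 3 with *Cfd* 0.367, where the other WT livers were at 0.

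*Gskip* was the gene whose genotype difference at 24 hours differed from that at 0 hours in edgeR's interaction test, by 1.45 on the log2 scale (adjusted p = 0.0107). The test called 0 genes without WT 2 at 24 hours.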

How the results depend on the processing

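The counts of called genes at 24 hours moved with most choices. They were 311 higher in DESeq2 (250 lower), 105 higher and 103 lower among genes that reached 10 counts in all libraries, and 344 and 526 with no fold-change threshold. They were 0 and 0 when tested against a log2 fold change of 1 (402 genes at an unadjusted p under 0.05) and with the compared groups alone, in edgeR and in limma-voom, and 118 and 57 in DESeq2 on those groups. They were 94 and 56 in the later run of library numbers, 125 and 104 with the run as a term, 762 and 512 without the 3 livers apart on the first component, and 801 and 639 without WT 1 and WT 2. These sets, the run fits and the fits of the 24-hour groups by DESeq2 and limma-voom were chosen after seeing the data. Leaving out 1 liver gave 102 to 391 higher and 92 to 424 lower at 24 hours, 0 to 7 higher and 0 to 0 lower at 6 hours, and 0 to 93 higher and 0 to 112 lower for the interaction.

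At 0 hours DESeq2 called 1 gene higher and 5 lower, and at 6 hours 8 and 1, where every gene with at least 1 count gave 2 higher. For the interaction DESeq2 called 64 and 32, every gene with at least 1 count gave 8 higher, and the test against a log2 fold change of 1 gave 0. RLE and upper-quartile scaling kept the 24-hour counts within 1.5 times, and no scaling moved the median of all genes by over 0.1.

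Of the 402 genes, 397 were also called by DESeq2, 395 kept their direction in all 11 fits without 1 liver and 345 (207 of 207 higher, 138 of 195 lower) did so in both sets without the livers that stood apart. Among the genes named with values, direction was reversed for *Cyp8b1* (log2 fold change 0.74, adjusted p = 0.552) and *Pcna* (-0.0377, adjusted p = 0.913), both without WT 3, WT 4 and SIRT1intKO 5. The cause was not tested. Replicate numbers are shared between the groups, but same-numbered livers did not deviate together (correlations of -0.0666, 0.212, -0.147 and -0.294, and 0 of 4 closest to their own number), so the numbers do not pair the livers. With the replicate block, 102 genes were called higher and 66 lower at 24 hours and 0 for the interaction. Of the 402 genes, 161 kept their call with the block and 185 with the run of library numbers as a term. With 4 WT livers, counts in single digits, as for *Acod1* or *Ccl4*, limit the precision of fold changes.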
